A study of Mus musculus with 6 samples.

Results

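The amino acid transporter families of the mouse germinal vesicle (GV) oocyte were compared between Bnc1tr/tr and wild-type (WT) females. Members were taken by symbol, as every listed gene of the Slc1a, Slc3a, Slc6a, Slc7a, Slc36a, Slc38a and Slc43a series. The rule used names only and no measured value, though the families were chosen with earlier results of these data known. It found 55 of the 17577 listed genes, of which 2 (Slc7a6os and Slc6a19os) are named for lying opposite a carrier gene and encode no carrier. The remaining 53 are referred to as carriers: 20 of the Slc6 family, 11 each of Slc7 and Slc38, 4 of Slc1, 3 of Slc43 and 2 each of Slc3 and Slc36.

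Amino acids cross membranes on carriers that are sorted into transport systems by substrate and by coupling ion. System L carriers move large neutral amino acids, system y+L exchanges cationic for neutral amino acids, and system xc- imports cystine against glutamate to feed glutathione synthesis. Many Slc7 proteins are light chains that reach the cell surface only when bound to a heavy chain of the Slc3 family, 4F2hc (Slc3a2) or rBAT (Slc3a1). Slc6 proteins couple uptake of glycine, taurine, gamma-aminobutyric acid (GABA), proline or monoamines to sodium and chloride. A growing oocyte imports part of its amino acids with its own carriers and receives others from the surrounding cumulus cells through gap junctions.

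The 6 libraries came from GV oocytes of 12-week-old C57BL/6J females, all primed with pregnant mare serum gonadotropin. In 3 of them the mice were homozygous for Bnc1tr, a frameshift allele of basonuclin 1 carried in every cell of the animal, and 3 were from WT mice. By the study's methods, each cDNA was made from 1 oocyte with a modified Smart-seq2 procedure that includes amplification. The labels do not name the animals, so p-values measure the spread between these libraries, which may come from fewer mice than libraries. Levels are in FPKM, a fragment count scaled by transcript length and by the total of the library, so they are relative and do not show the RNA content of an oocyte.

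The size of a single fragment's step among low values gave an estimated depth of 13.3 to 17.1 M fragments (M, mega) in Bnc1tr/tr and 14.9 to 21.1 M in WT. At that depth 3 fragments on 1 kb of transcript are worth 0.142 to 0.225 FPKM, a floor that covers counting error only. Genes above 0 numbered 15258 to 15736 in Bnc1tr/tr libraries and 13896 to 14576 in WT libraries, with the fewest in WT replicate 3. The part of this difference in the values of low genes was not tested. Bnc1 itself was 9.04, 6.51 and 5.83 FPKM in Bnc1tr/tr and 13.2, 12.5 and 16.2 FPKM in WT (log2 fold change -0.89, SE 0.20, limma adjusted p = 0.00895). A value per gene cannot show the small deletion itself. Oocyte markers were abundant in every library, with a sum over 11 genes of 15034 to 16605 FPKM in Bnc1tr/tr and 16700 to 18682 FPKM in WT.

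To order the carriers of the normal oocyte, WT libraries were ranked by mean FPKM. Slc3a2, the 4F2hc heavy chain, stood first at 66.6 to 108 FPKM, and its 3 libraries lay above every WT library of Slc43a3, the next carrier (31.6 to 44.5 FPKM). Slc43a3 belongs to the Slc43 family by sequence but carries nucleobases. Slc7a9 followed at 20.2 to 44.8 FPKM, then Slc7a11 at 15.2 to 20.4, Slc6a15 at 15.1 to 20.5, Slc7a7 at 13.5 to 15.7 and Slc6a9 at 14.2 to 14.3 FPKM. From Slc43a3 to Slc6a9 each carrier overlapped the next in the order, so no neighbours in this run differed beyond their spread, while Slc43a3 lay above every WT library from Slc7a11 on. Slc38a9 began a lower run at 7.96 to 9.61 FPKM. In WT, 7 carriers had a mean of at least 10 FPKM, 12 had 1 to 10 FPKM and 34 were under 1 FPKM.

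Groups were compared with limma on log2(FPKM + 1), a scale that understates the change of low genes. A gene entered the test if its 6 libraries averaged 1 FPKM or more, and was called at a Benjamini-Hochberg adjusted p under 0.05 with an absolute log2 fold change over 0.5. Of the 53 carriers, 23 were tested, 4 were called higher in Bnc1tr/tr oocytes (17.4%) and 5 lower (21.7%). Over all 10560 tested genes, 24.1% were called higher and 7.68% lower. The median log2 fold change was -0.02 for the tested carriers and 0.15 for all tested genes. Libraries of the groups did not overlap for 5 tested carriers that were higher in Bnc1tr/tr and 5 that were lower, against 32.7% and 14.1% of all tested genes.

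The balance of calls over all genes depended on scaling. Higher calls were 75.9% of all calls on FPKM. They were 50.1% once libraries were scaled to their upper quartiles, 55.5% with median-ratio factors and 46.8% with quantile normalization. The median of all genes moved from 0.15 to -0.10, -0.05 and -0.10 in the same order. Each of the 9 called carriers kept its direction and its call under these 3 scalings.

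**Figure D1:**
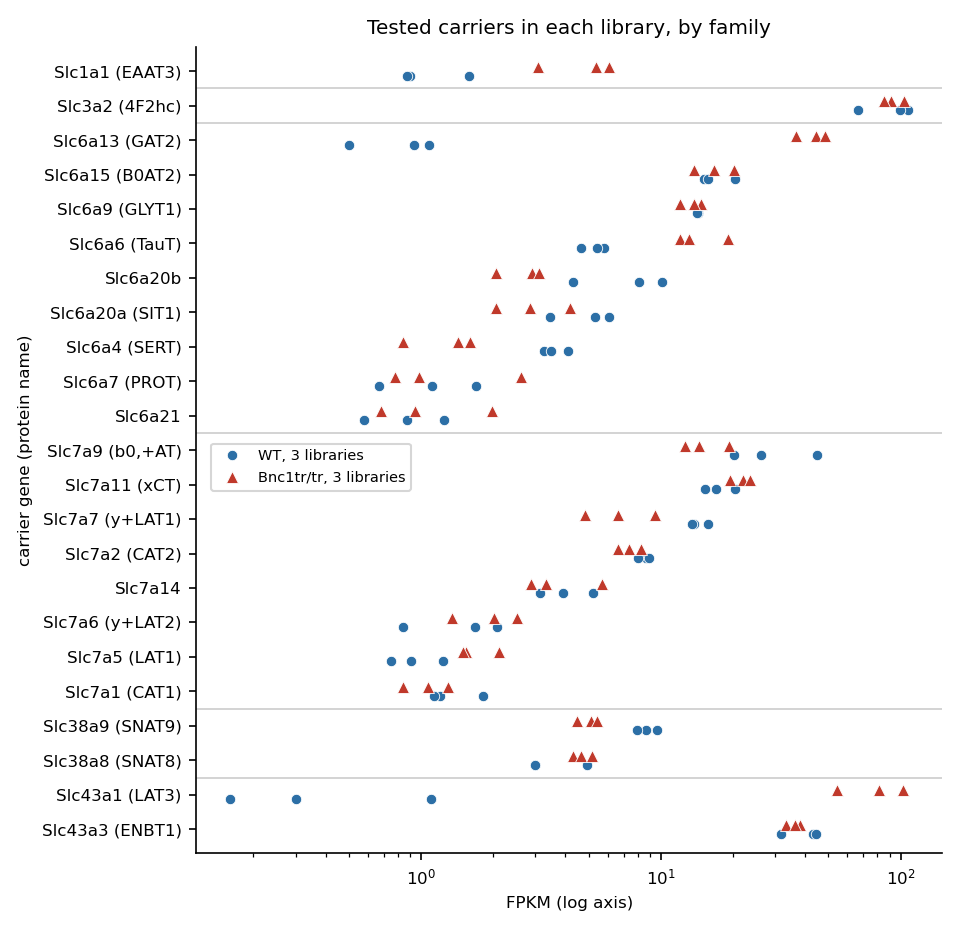
Level of the 23 tested carriers in each library, in FPKM on a log axis, grouped by family and ordered by mean within a family. Circles are the 3 WT libraries and triangles the 3 Bnc1tr/tr libraries. Slc43a1 and Slc6a13 are near or under 1 FPKM in WT and above 36 FPKM in every Bnc1tr/tr library.

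Slc43a1 showed the largest change of any tested carrier. It encodes LAT3, a system L carrier that lets branched-chain amino acids and phenylalanine cross without sodium, and lies at chr2:84838855-84863586 on the plus strand (GRCm38). Its level was 102, 81.5 and 54.3 FPKM in Bnc1tr/tr and 0.30, 1.10 and 0.16 FPKM in WT. Every Bnc1tr/tr library was far above every WT library, and WT replicate 2 was the highest of the WT libraries. The log2 fold change was 5.73 (SE 0.29, limma adjusted p = 3.09e-06), and the ratio of group means was 152, or 345 without WT replicate 2. Among all carriers Slc43a1 was the second most abundant in Bnc1tr/tr oocytes, next to Slc3a2. In the summed FPKM of 5 carriers of large neutral amino acids (Slc43a1, Slc43a2, Slc7a5, Slc7a8 and Slc6a15) it made up 79.0% ± 7.40 (SD, n = 3) in Bnc1tr/tr and 2.80% ± 2.76 (SD, n = 3) in WT.

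Slc6a13 changed in the same direction. It encodes GAT2, a carrier of GABA that also takes up taurine, at chr6:121300288-121337721. Values were 44.6, 48.5 and 36.6 FPKM in Bnc1tr/tr against 0.93, 0.50 and 1.08 FPKM in WT. The groups were wide apart, with a ratio of means of 51.6 and a log2 fold change of 4.59 (SE 0.19, limma adjusted p = 2.01e-06). Slc6a12, which encodes the betaine and GABA carrier BGT1 and starts 4853 bases from Slc6a13, was at 1.5, 0.76 and 1.68 FPKM in Bnc1tr/tr and 0.28, 0 and 0 FPKM in WT. It stayed under the filter on low values and was not tested. Slc43a1 and Slc6a13 averaged under 1 FPKM in WT and passed that filter through their Bnc1tr/tr libraries.

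The sequences before the start of these genes are shown because they lead the list, beside that of Slc7a11, a carrier tied to ferroptosis, which the study examined. Each is the 250 bases before 1 transcript start that RefSeq gives for the gene (GRCm38.p6), read along the gene, 5′ to 3′. That start is the outer end of the gene for Slc6a13. It lies 1468 bases inside the outer end for Slc43a1 and 55474 bases inside it for Slc7a11, and other starts were not read. Capitals mark matches, on either strand, to 4 words, whose matches do not overlap in these windows. The word GGGCGG is the core of the GC box. The word CACGTG forms an E-box. The word TATAAA belongs to the basal promoter element. The word TGATGCAA lies at the core of the element bound by ATF4 with C/EBP factors. The windows are chr2:84840073-84840322 on the plus strand for Slc43a1, chr6:121300038-121300287 on the plus strand for Slc6a13, and chr3:50443614-50443863 on the minus strand for Slc7a11.
Slc43a1: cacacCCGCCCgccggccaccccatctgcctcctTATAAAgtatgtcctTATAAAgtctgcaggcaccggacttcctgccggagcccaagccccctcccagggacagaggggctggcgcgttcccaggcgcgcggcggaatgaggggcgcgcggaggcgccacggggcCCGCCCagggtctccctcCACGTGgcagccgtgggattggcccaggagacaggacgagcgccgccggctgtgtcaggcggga
Slc6a13: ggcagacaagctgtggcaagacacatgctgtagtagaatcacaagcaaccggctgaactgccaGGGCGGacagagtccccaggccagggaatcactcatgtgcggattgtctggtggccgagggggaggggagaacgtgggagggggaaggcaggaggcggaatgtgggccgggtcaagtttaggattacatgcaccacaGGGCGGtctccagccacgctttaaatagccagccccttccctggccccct
Slc7a11: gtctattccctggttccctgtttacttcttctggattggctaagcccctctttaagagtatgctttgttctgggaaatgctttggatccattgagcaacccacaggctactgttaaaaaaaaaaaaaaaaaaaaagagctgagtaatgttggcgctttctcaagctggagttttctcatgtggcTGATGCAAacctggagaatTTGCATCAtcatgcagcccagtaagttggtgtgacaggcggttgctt

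The Slc43a1 window was rich in G and C (70.8%, with 52.0% as the median over 27025 genes). It held GGGCGG in 2 places, CACGTG in 1 and TATAAA in 2, words present in 32.9%, 6.05% and 13% of all windows. The Slc6a13 window held GGGCGG in 2 places and none of the other words. TGATGCAA was found in 0.818% of all windows. Slc7a11 alone among the 17 tested carriers with a window held it, in 2 places that begin 66 and 47 bases before the start used for this window. At least 2 copies were seen in 2 of the 27025 windows. A match describes the letters only, and binding was not measured.

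Slc6a6 and Slc1a1 were the other carriers called higher. Slc6a6 encodes TauT, the carrier of taurine and beta-alanine, which cells use as organic osmolytes. It was at 19.0, 12.1 and 13.1 FPKM in Bnc1tr/tr and 5.78, 4.63 and 5.40 FPKM in WT. Every Bnc1tr/tr library exceeded every WT library, with a log2 fold change of 1.31 (SE 0.20, limma adjusted p = 0.00139) and a ratio of means of 2.79.

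Slc1a1 encodes EAAT3, which takes up glutamate, aspartate and cysteine with sodium. Its values were 5.35, 6.10 and 3.06 FPKM in Bnc1tr/tr and 0.90, 0.87 and 1.58 FPKM in WT. The groups did not overlap, and the log2 fold change was 1.44 (SE 0.24, limma adjusted p = 0.00222). Of its exon bases 31.9% overlap 4430402I18Rik on the other strand, and the counting is not known to use strand. That gene had a log2 fold change of -0.40 (adjusted p = 0.315), opposite in sign to Slc1a1.

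Among the 5 carriers called lower, 2 exchange cationic amino acids. Slc7a7 encodes y+LAT1, the light chain that with 4F2hc releases arginine and lysine from cells in exchange for neutral amino acids and sodium. It was at 6.62, 9.46 and 4.81 FPKM in Bnc1tr/tr and 15.7, 13.8 and 13.5 FPKM in WT. All WT libraries lay above all Bnc1tr/tr libraries, with a log2 fold change of -0.98 (SE 0.23, limma adjusted p = 0.0101).

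Slc7a9 encodes b0,+AT, which with rBAT takes up cystine and dibasic amino acids. Values were 12.6, 19.3 and 14.5 FPKM in Bnc1tr/tr against 20.2, 26.2 and 44.8 FPKM in WT. The groups were separated by less than 1 FPKM, and WT replicate 3 stood far above the other WT libraries. The log2 fold change was -0.87 (SE 0.29, limma adjusted p = 0.0459). Without WT replicate 3 it was -0.56, and the call was lost with a pseudocount of 0.1, without the filter, and when any Bnc1tr/tr replicate or WT replicate 2 or 3 was left out. Slc3a1, its heavy chain, was low in both groups, at 0.50, 0.45 and 0.06 FPKM in Bnc1tr/tr and 0.24, 0.09 and 0 FPKM in WT.

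Slc38a9, a lysosomal carrier that reports arginine to the mTORC1 kinase complex, was also lower. It was at 5.11, 4.48 and 5.41 FPKM in Bnc1tr/tr and 9.61, 8.66 and 7.96 FPKM in WT, with little spread inside either group. The log2 fold change was -0.70 (SE 0.16, limma adjusted p = 0.0107).

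Slc6a4 encodes SERT, the serotonin carrier, a member of the Slc6 family that moves no protein-building amino acid. Its FPKM was 0.84, 1.43 and 1.60 in Bnc1tr/tr and 4.09, 3.25 and 3.47 in WT, again without overlap. It changed by -1.02 on the log2 scale (SE 0.19, limma adjusted p = 0.00344).

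Slc6a20b and Slc6a20a are neighbouring copies on chromosome 9, separated by 4369 bases. Slc6a20a encodes SIT1, the sodium-coupled carrier of proline and betaine. Slc6a20b was at 2.89, 2.06 and 3.10 FPKM in Bnc1tr/tr and 10.1, 8.14 and 4.31 FPKM in WT, a log2 fold change of -1.15 (SE 0.27, limma adjusted p = 0.0120). Slc6a20a was at 4.2, 2.05 and 2.84 FPKM in Bnc1tr/tr and 6.10, 5.32 and 3.46 FPKM in WT, where the groups overlapped. Its log2 fold change was -0.57 (95% confidence interval -1.14 to -0.01, adjusted p = 0.114). In WT replicate 3 both copies were lower than in the other WT libraries.

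Values of the copies are uncertain, since 11% of the 31-base words of Slc6a20b and 19.5% of those of Slc6a20a occur in other genes, with each copy the leading partner of the other. Slc6a20b also overlaps Sacm1l on the opposite strand over 21.1% of its exon bases, and Sacm1l was called higher (log2 fold change 0.89, adjusted p = 0.00413). Slc6a20b lost its call without Bnc1tr/tr replicate 2. Slc6a20a gained a call under the 3 scalings and without WT replicate 3.

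**Figure D2:**
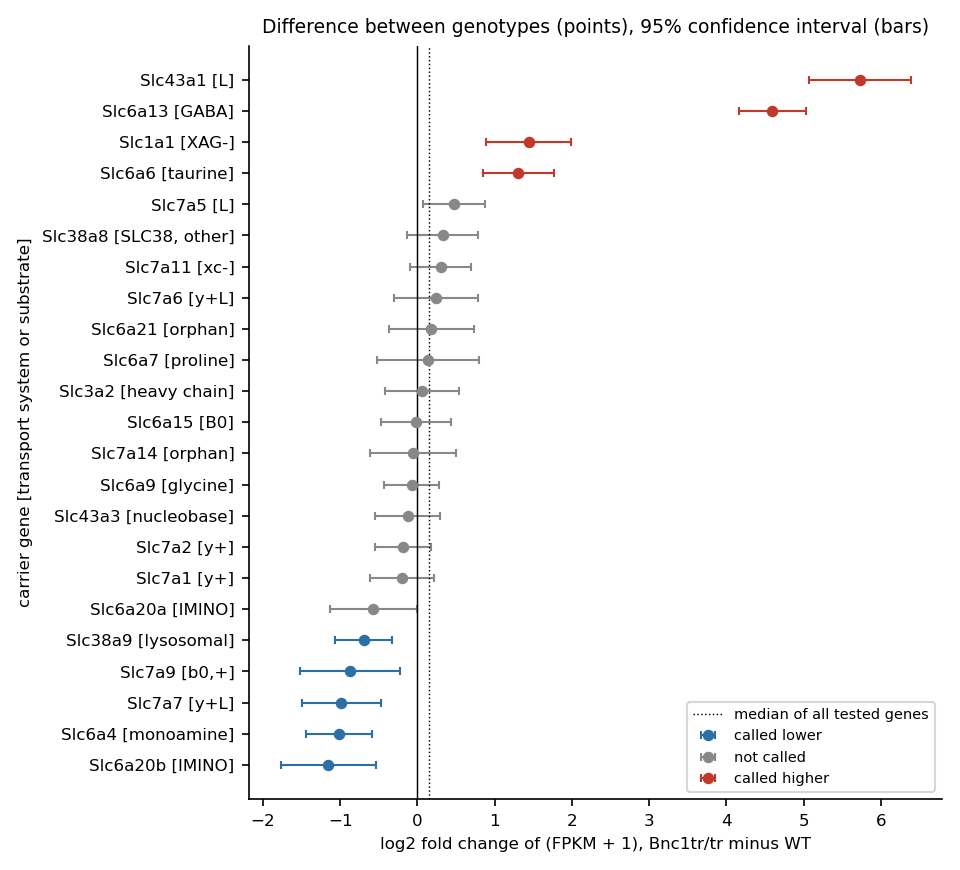
Log2 fold change of FPKM + 1 (Bnc1tr/tr minus WT) for the 23 tested carriers, with 95% confidence intervals from limma as bars and the transport system or substrate in brackets. The 4 carriers called higher range from 1.31 to 5.73 and the 5 called lower from -1.15 to -0.70, and the dotted line is the median of all tested genes, 0.15.

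The heavy chain 4F2hc and its light chains were read together, because the surface carrier needs both. Slc3a2 was at 103, 91.3 and 85.5 FPKM in Bnc1tr/tr and 108, 99.3 and 66.6 FPKM in WT. These overlapped throughout, and the log2 fold change was 0.06 (95% confidence interval -0.42 to 0.54, limma adjusted p = 0.862). Its sign turned under upper-quartile and median-ratio scaling.

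Slc7a11 encodes xCT, the cystine and glutamate exchanger of system xc-. Its values were 22.0, 23.5 and 19.5 FPKM in Bnc1tr/tr and 17.0, 15.2 and 20.4 FPKM in WT. The lowest Bnc1tr/tr library lay under the highest WT library, and the log2 fold change of 0.30 was not called (95% confidence interval -0.10 to 0.69, limma adjusted p = 0.227). The interval leaves room for values from -0.10 to a rise of 0.69 on the log2 scale. With upper-quartile scaling the log2 fold change of Slc7a11 was 0.035, with median-ratio scaling 0.087 and with quantile normalization 0.075, none of them called. By RT-PCR of GV oocytes, the study reported significantly abnormal expression of both Slc7a11 and Slc3a2, in a direction that its text does not give.

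Slc7a5, or LAT1, the system L exchanger of large neutral amino acids, was at 2.11, 1.54 and 1.49 FPKM in Bnc1tr/tr and 0.75, 0.91 and 1.23 FPKM in WT. The libraries did not overlap, but the adjusted p of 0.0751 missed the threshold at a log2 fold change of 0.47. It passed with a pseudocount of 0.1 and without WT replicate 3. The log2 fold change of Slc7a5 was 0.31 with upper-quartile scaling, 0.34 with median-ratio scaling and 0.015 with quantile normalization, without a call. Its mean was 0.963 FPKM in WT and 1.71 FPKM in Bnc1tr/tr, so it passed the filter through its Bnc1tr/tr libraries. Slc7a6, or y+LAT2, another exchanger of cationic for neutral amino acids, was at 2.51, 1.35 and 2.02 FPKM in Bnc1tr/tr and 1.68, 2.07 and 0.84 FPKM in WT. Slc7a8, or LAT2, an exchanger of neutral amino acids, was not tested, at 0.36, 0.75 and 0.16 FPKM in Bnc1tr/tr and 0.83, 0.66 and 0.68 FPKM in WT.

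The summed FPKM of these 5 light chains was 32.8 ± 4.37 in Bnc1tr/tr and 35.1 ± 2.15 in WT (SD, n = 3 each), a difference within the spread. Its makeup differed between the groups. Slc7a11 gave 65.5%, 64.2% and 69.7% of the sum in Bnc1tr/tr and 47.2%, 46.6% and 55.6% in WT. Slc7a7 gave 19.7%, 25.8% and 17.2% in Bnc1tr/tr and 43.7%, 42.2% and 36.9% in WT. For each of these shares the 3 libraries of a genotype lay on the same side of all 3 of the other. Shares of 1 sum are linked, so a lower Slc7a7 by itself raises the share of Slc7a11, which was not called. Slc3a2 was 2.87 ± 0.33 times this sum in Bnc1tr/tr and 2.62 ± 0.69 times in WT (SD, n = 3 each).

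**Figure D3:**
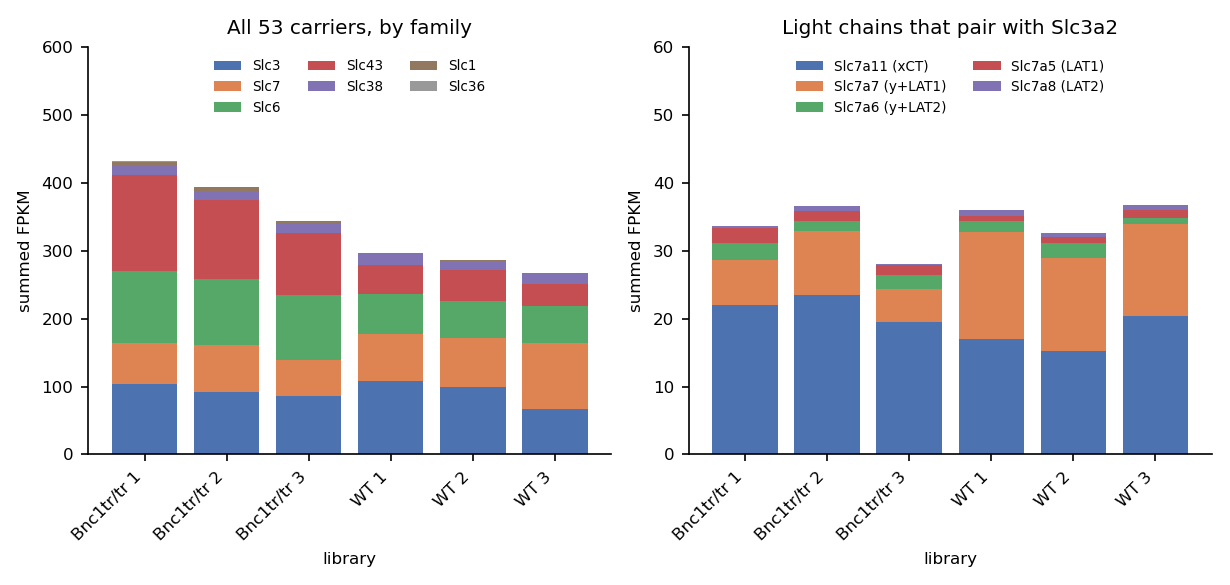
Summed FPKM in each of the 6 libraries, stacked from 0. On the left are all 53 carriers by family, with totals from 344 to 431 FPKM in Bnc1tr/tr and 267 to 296 FPKM in WT; on the right are 5 light chains that pair with Slc3a2, where the Slc7a11 part is a larger share in Bnc1tr/tr and the Slc7a7 part a larger share in WT.

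The glycine carrier Slc6a9 and the neutral amino acid carrier Slc6a15 were among the abundant carriers that were not called. Slc6a9 encodes GLYT1, whose glycine uptake serves the control of cell volume in mouse oocytes and early embryos. It was at 14.7, 12.0 and 13.8 FPKM in Bnc1tr/tr and 14.3, 14.3 and 14.2 FPKM in WT. The log2 fold change was -0.08 (95% confidence interval -0.43 to 0.28, limma adjusted p = 0.747), and 30.2% of its exon bases overlap genes on the other strand.

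Slc6a15, or B0AT2, a carrier of branched-chain amino acids and proline, was at 13.8, 16.7 and 20.2 FPKM in Bnc1tr/tr and 15.1, 15.7 and 20.5 FPKM in WT (log2 fold change -0.02, 95% confidence interval -0.47 to 0.43). The nucleobase carrier Slc43a3 was at 38.1, 33.3 and 36.2 FPKM in Bnc1tr/tr and 42.98, 44.5 and 31.6 FPKM in WT (log2 fold change -0.13, 95% confidence interval -0.55 to 0.29). Slc43a3 lies 72959 bases from Slc43a1. The 14 tested carriers that were not called ranged from -0.57 to 0.47 on the log2 scale. Among them, the arginine and lysine carriers of system y+, Slc7a1 and Slc7a2, had log2 fold changes of -0.20 and -0.18.

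No carrier of system A or system N passed the filter on low values, which left out 30 carriers. System A, the sodium-coupled uptake of small neutral amino acids by Slc38a1, Slc38a2 and Slc38a4, summed to 0.18 to 0.39 FPKM in Bnc1tr/tr and 0.27 to 0.68 FPKM in WT. Slc38a3, the SNAT3 carrier found in cumulus cells, was listed at 0 in all Bnc1tr/tr libraries and at 0.03, 0.05 and 0 FPKM in WT. In all, 18 of the 30 were under 0.5 FPKM in all 6 libraries and 5 reached 1 FPKM in at least 1 library.

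For 7 of the 30 every Bnc1tr/tr library lay above every WT library, and for 0 below, while among all 7014 genes under the filter 21.4% lay above and 3.25% below. A fit of limma without the filter on low values called 6 of the 30 higher and 0 lower, and at an unadjusted p under 0.05 the counts were 7 and 0. The same fit called 7.29% of the 7014 genes under the filter higher and 0.499% lower, so higher calls outnumbered lower calls among all low genes. The 6, named after their values were seen, were Slc6a12, the glutamine exchanger Slc1a5 (ASCT2), the system L carrier Slc43a2 (LAT4), the glycine carrier Slc6a5 (GLYT2), Slc38a10 and Slc38a11. Slc1a5 was at 0.86, 0.40 and 0.54 FPKM in Bnc1tr/tr and 0, 0.09 and 0 FPKM in WT. Slc43a2 was at 1.05, 0.64 and 0.37 FPKM in Bnc1tr/tr and 0.03, 0.13 and 0 FPKM in WT. Such values rest on few fragments, and genes at this level pass a filter on the mean of all libraries mainly through the group in which they are higher.

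Summed over all 53 carriers, FPKM was 431, 394 and 344 in Bnc1tr/tr and 296, 287 and 267 in WT. Without Slc43a1 and Slc6a13 the sums were 285, 264 and 253 in Bnc1tr/tr and 295, 285 and 266 in WT, and the groups overlapped. The Slc43 family summed to 116 ± 25.2 FPKM in Bnc1tr/tr and 40.3 ± 7.45 in WT, and the Slc6 family to 100.3 ± 5.05 and 56.0 ± 2.39 FPKM (SD, n = 3 each). The Slc7 family was lower in Bnc1tr/tr, at 60.9 ± 7.67 against 79.5 ± 15.5 FPKM (SD, n = 3 each). The nearest libraries were 68.7 and 69.2 FPKM, and the difference of -18.6 became -9.68 without WT replicate 3. The Slc3 family was at 93.7 ± 9.18 and 91.3 ± 21.7 FPKM, where the groups overlapped. Slc38 carriers summed to 13.4 ± 0.47 and 14.9 ± 1.11 FPKM, a difference of -1.56 that became -0.92 without WT replicate 1, and Slc1 carriers to 5.63 ± 1.61 and 1.19 ± 0.34 FPKM.

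By transport system, large neutral amino acid carriers of system L summed to 82.1 ± 24.8 FPKM in Bnc1tr/tr, mostly Slc43a1, and 2.26 ± 0.47 FPKM in WT. Proline carriers of the IMINO system were at 5.71 ± 1.5 FPKM in Bnc1tr/tr and 12.5 ± 4.29 FPKM in WT, the sum of Slc6a20a and Slc6a20b. The nearest IMINO libraries of the groups were 7.09 FPKM in Bnc1tr/tr and 7.77 FPKM in WT. System y+L, mostly Slc7a7, was at 8.92 ± 2.0 FPKM in Bnc1tr/tr and 15.9 ± 1.52 FPKM in WT (SD, n = 3 each). In these 3 systems the libraries of the groups did not overlap, and the sums were not tested. The same held for other systems, such as the carriers of GABA, taurine and monoamines. Those of glycine and of system y+ overlapped.

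Genes within 100 kb of the 9 called carriers were read beside them. Of 36 listed neighbours 26 were tested, and limma called 5 higher and 2 lower, against 24.1% and 7.68% of all tested genes. Within 100 kb of Slc43a1, 5 genes are listed and 2 were tested. Timm10, a subunit of the mitochondrial import machinery 8642 bases away, was called higher (68.3, 108 and 72.2 FPKM in Bnc1tr/tr and 25.6, 26.5 and 23.7 FPKM in WT, log2 fold change 1.64, limma adjusted p = 0.000398), and Slc43a3 was not called. Slc6a13 had 3 listed neighbours, all under the filter on low values. Around Slc7a9, 5 neighbours were tested and 1 was called lower (Rhpn2), and around Slc7a7, 5 were tested and 1 was called higher (Prmt5). Around Slc38a9, Plpp1 was called lower (log2 fold change -2.33, limma adjusted p = 0.000334) and Il31ra higher (0.67). Around Slc6a4, Tmigd1 was called higher (2.13), opposite to the carrier. The 3 tested neighbours of Slc1a1 and the 1 of Slc6a6 had limma adjusted p-values of 0.0795 or more.

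Markers of other ovarian cells were read in the same libraries. Summed over the listed granulosa and cumulus markers, FPKM was 49.4 to 65.9 in Bnc1tr/tr and 23.3 to 40.9 in WT. Of 6 tested markers 3 were called higher (Fshr, Kitl and Cyp11a1) and 0 lower, against 24.1% and 7.68% of all tested genes. Fshr, at 0.31, 0.74 and 0 FPKM in WT, passed the filter only through its Bnc1tr/tr libraries. Most of the sum was Cyp19a1, which was not called, and Inha went the other way in part, at 0.18, 1.81 and 0.09 FPKM in Bnc1tr/tr and 6.78, 3.45 and 0.04 FPKM in WT. Hsd17b1 was at most 0.38 FPKM in Bnc1tr/tr and 1.43 FPKM in WT. Foxl2 was at 0 in all Bnc1tr/tr libraries and at most 0.03 FPKM in WT, and Amhr2 was at 0 in all Bnc1tr/tr libraries and at most 0.21 FPKM in WT. Theca and stroma markers summed to 5.91 to 9.76 FPKM in Bnc1tr/tr and 1.40 to 2.09 FPKM in WT. Of these only 1 was tested, Dcn, which was called higher, and Col1a1 was at or near 0. Endothelial markers summed to 5.38 to 8.10 and 10.1 to 11.7 FPKM. Immune markers summed to 1.99 to 52.0 and 1.39 to 3.0 FPKM, with Lyz2 at 48.0 FPKM in Bnc1tr/tr replicate 2. The granulosa and theca sums were higher in the Bnc1tr/tr libraries, as were Slc43a1, Slc6a13, Slc6a6 and Slc1a1, and their part in the carriers' values was not tested.

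Genes that use, sense or respond to amino acids were set beside the carriers in 6 lists. The response to amino acid shortage, in which ATF4 raises carriers and serine synthesis, had 19 listed genes, of which 12 were tested. Of the 12, limma called 0 higher and 0 lower, with a median log2 fold change of 0.02. The log2 fold changes ran from -0.54 for Aldh18a1 to 0.55 for Asns. At an unadjusted p under 0.05 the counts were 0 higher and 1 lower. Over all tested genes 24.1% were called higher and 7.68% lower. Atf4, named after its values were seen, was at 60.6, 50.3 and 34.0 FPKM in Bnc1tr/tr and 59.0, 54.3 and 32.7 FPKM in WT. These are RNA levels, and ATF4 protein was not measured here.

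Genes that report amino acids to mTORC1 had 22 tested members, with 3 called higher (13.6%), 2 lower (9.09%) and a median of 0.07, against 24.1% and 7.68% of all tested genes. Sesn1, a sestrin of the leucine-sensing branch that restrains mTORC1, was at 4.98, 3.88 and 5.31 FPKM in Bnc1tr/tr and 0.33, 0.18 and 0.60 FPKM in WT (log2 fold change 2.07, limma adjusted p = 6.36e-05), and it passed the filter only through its Bnc1tr/tr libraries. Flcn, the folliculin of the Rag GTPase branch, was higher by 0.93 and Mios by 0.64. Kptn, of the KICSTOR complex, changed by -1.32 and Nprl2, of the GATOR1 complex, by -0.73. Kptn was at 1.05, 1.0 and 0.04 FPKM in Bnc1tr/tr and passed the filter only through its WT libraries.

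Glycine cleavage and one-carbon genes had 14 tested members, of which 4 were called higher by limma (28.6%), near the 24.1% of all genes, and 0 lower, with 1 lower at an unadjusted p under 0.05. Gnmt, which methylates glycine, was at 60.1, 74.9 and 41.0 FPKM in Bnc1tr/tr and 10.3, 12.2 and 7.36 FPKM in WT (log2 fold change 2.43, limma adjusted p = 0.000164). Gldc, the glycine decarboxylase, was at 3.60, 4.04 and 4.06 FPKM in Bnc1tr/tr and 0.15, 0.09 and 0 FPKM in WT (log2 fold change 2.18, adjusted p = 1.86e-05), and it passed the filter only through its Bnc1tr/tr libraries. Shmt2, the mitochondrial serine hydroxymethyltransferase, rose by 2.18 and Mtr, the methionine synthase, by 0.69.

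Glutathione synthesis had 9 tested genes, and the list takes in Mat2a, Mat2b and Ahcy, genes of the methionine cycle. Of the 9, 2 were called higher (22.2%, against 24.1% of all genes) and 1 lower (11.1%, against 7.68%), with a median of 0.37. Mat2a, which makes S-adenosylmethionine, rose by 1.94 on the log2 scale (adjusted p = 0.00117) and Gclc, the catalytic subunit for the rate-limiting step of glutathione synthesis, by 1.04 (adjusted p = 0.00472). Chac2, which degrades glutathione, changed by -0.76 (adjusted p = 0.0226). Gclm, Gss, Cth and Ggt1 changed by -0.49, -0.27, 0.83 and 0.39 and were not called. Aminoacyl-tRNA synthetases had 21 tested genes, with 1 called lower (Rars, -0.68; 4.76%, against 7.68% of all genes), 0 called higher by limma (1 at an unadjusted p under 0.05) and a median of -0.24. Amino acid and peptide carriers of other families had 14 tested genes, with 1 called higher (Slc25a40, 0.99; 7.14%, against 24.1% of all genes) and a median of 0.33 against 0.15 for all genes.

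**Figure D4:**
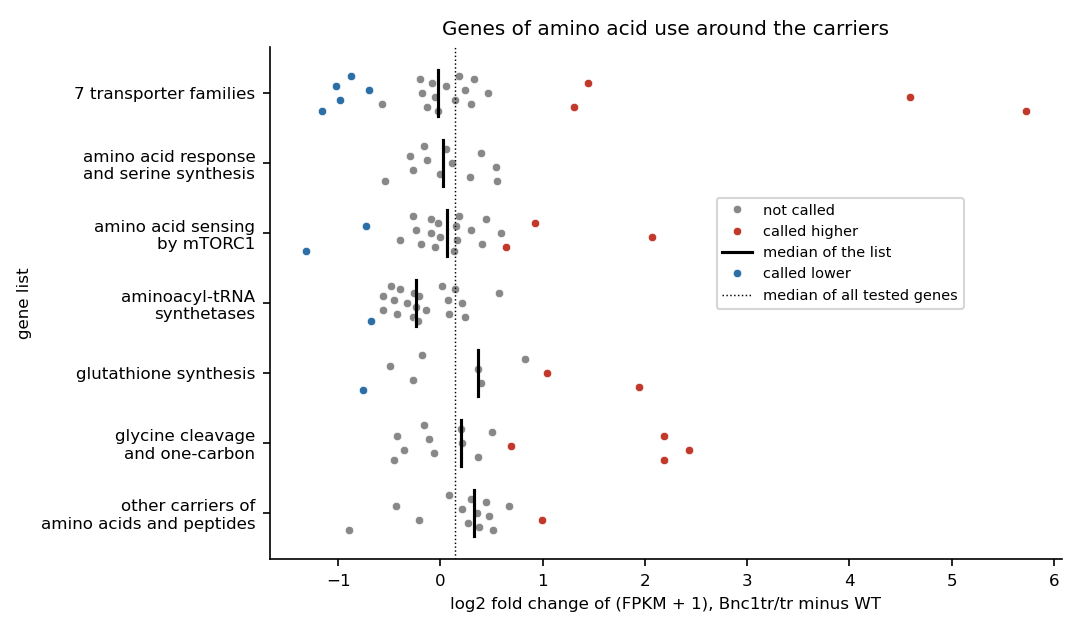
Log2 fold change of FPKM + 1 (Bnc1tr/tr minus WT) of each tested gene in the 7 transporter families and in 6 lists of genes around amino acid use. Coloured points were called by limma, short lines are list medians and the dotted line is the median of all tested genes; Slc43a1 and Slc6a13 lie farther right than any gene of the 6 lists.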

How the data were processed

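GV oocyte cDNA of 3 Bnc1tr/tr and 3 WT samples was made with a modified Smart-seq2 procedure. The authors deposited 1 table of FPKM per library, rounded to 2 decimals, which list the same 17577 genes. The submitters' processing notes name HISAT2 2.0.4, Bowtie2 2.2.5, RSEM 1.2.12 and GRCm38.p6, without their roles. FPKM values depend on every other transcript of the library, and cDNA was amplified with no molecular identifiers, so fragments are not independent molecules. FPKM was compared as deposited, with limma 3.58.1 (R 4.3.3) on log2(FPKM + 1), after tests on simulated data. There 113 of 200 planted changes were recovered (56.5%), with 2 false calls, so a carrier that was not called may still differ. The study states that its comparisons were between littermates, but whether replicate numbers mark pairs is not known. Deviation correlations of libraries with the same number were 0.28, -0.03 and 0.12, and no block was used in the main fit. Members were taken by symbol, and members, transport systems and gene lists were chosen with earlier results of these data known. Values are given for called carriers, the 8 most abundant in WT, Slc43a1, Slc7a11, Slc3a2 and its light chains, and Slc6a9, Slc6a6, Slc6a20a and Slc38a3. In each list, the 2 largest called changes in each direction were to be named. Mios, Shmt2, Mtr, Atf4, Asns, Aldh18a1, Gclm, Gss, Cth, Ggt1, Mat2b, Ahcy and the low carriers Slc6a12, Slc1a5 and Slc43a2 are outside the rule. They were named after their values were seen. Slc7a10 and 9 further family genes were not analysed here. Overlaps and shared words came from GENCODE M21, and coordinates and start sites from RefSeq, both on GRCm38. Alternatives were another pseudocount, other filters, scalings and thresholds, robust variances, the block, and leaving out each replicate.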

Additional observations from a re-analysis of the deposited data

How the results depend on the processing

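Of the 9 called carriers, 0 changed direction in 124 refits and 8 refits lost a call, 7 for Slc7a9 and 1 for Slc6a20b. The cause of the changes below was not tested. Carriers called higher were 4, and 10 without the filter, which tests 53 carriers in place of 23 (13 at a minimum mean of 5 FPKM); leaving out a replicate gave 4 to 6. Carriers called lower were 5, with 8 after quantile normalization (Slc6a20a, Slc7a1 and Slc7a2 joined), 2 at an absolute log2 fold change over 1, and 3 to 5 when leaving out a replicate, 3 without Bnc1tr/tr replicate 2. Signs turned only for carriers that were not called. With upper-quartile scaling Slc3a2 was at -0.21 and Slc6a7 at -0.019, and with median-ratio scaling Slc3a2 was at -0.16. With quantile normalization Slc38a8 was at -0.073, Slc6a21 at -0.23, Slc6a7 at -0.30 and Slc7a6 at -0.19. Leaving out a replicate gave -0.15 to 0.19 for Slc3a2, -0.15 to 0.11 for Slc6a15, -0.17 to 0.34 for Slc6a7 and -0.29 to 0.10 for Slc7a14. Summed FPKM of Bnc1tr/tr minus WT moved from 2.40 to -14.5 for Slc3, from -18.6 to -33.2 for Slc7, from -1.56 to -4.26 for Slc38 and from 44.3 to 29.4 for Slc6 with upper-quartile scaling; median-ratio scaling gave -3.73 for Slc38 and 32.3 for Slc6. With the replicate block, 4 carriers were called higher and 5 lower, as without it, and Slc7a9 had an adjusted p of 0.0236; 3 of 6 libraries correlated best with the library of their own number. Depth limits values under 0.142 to 0.225 FPKM on a transcript of 1 kb, and under less on longer ones.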
